A study of Homo sapiens with 16 samples.

Results

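The class II olfactory receptor (OR) genes of chromosome 11 were examined for dimethylation of lysine 9 of histone H3 (H3K9me2) at their transcription start sites in human fibroblasts. A gene was included when one of its start windows lay on chromosome 11 and its symbol belonged to OR families 1 to 14 without the suffix that marks a pseudogene. This gave 117 genes of 68302 in the table, with 142 distinct start windows of 2000 bp. Of these, 22 genes had more than 1 window, and in 11 of them the windows overlapped, so that some reads were counted more than once. RefSeq lists 5 of the 117 (OR4C45, OR8J2, OR5AL1, OR4A8 and OR5G3) as pseudogenes although their symbols do not say so. When neighbours less than 1 Mb apart were joined, the genes fell into 7 clusters of 12, 7, 3, 51, 21, 1 and 22 genes, numbered here along the chromosome.

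Odorant receptors are G protein-coupled receptors of olfactory sensory neurons, and class II denotes the receptor families of land vertebrates. A mature olfactory neuron expresses a single receptor allele, and the other receptor genes lie in heterochromatin marked by methylation of lysine 9 of histone H3. Most of these genes are silent outside the olfactory epithelium. H3K9me2 is deposited mainly by the methyltransferases EHMT1 and EHMT2 and is typical of large silent domains.

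The cells were BJ-5ta, a human foreskin fibroblast line immortalised with telomerase. Wild-type (WT) cells were compared with ΔLEO1 cells, which are 1 clone made by CRISPR with guides to exons 1 and 2 of LEO1, the gene for a subunit of the transcription elongation complex PAF1C. Each genotype was grown in 10% serum (proliferating) or kept for 10 days in 0.1% serum (quiescent), and each of the 4 conditions had 2 chromatin immunoprecipitation (ChIP) libraries, A and B, and 2 input libraries of unselected chromatin. The labels name the ChIP antibody only as H3, and the study's methods give an antibody to H3K9me2. Nothing states that A and B came from separate cultures, so the spread between them may be technical.

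ChIP library A of ΔLEO1 in 10% serum held 54 reads over all windows and was left out, so that condition rested on 1 ChIP library whose variation was assumed to equal that of the other groups. The other ChIP libraries held 2153836 to 3696942 reads over all start windows and the inputs 3267811 to 9238282. The 117 genes took 0.0971 to 0.117% of the gene reads in ChIP and 0.0472 to 0.0595% in input. A chi-square test over genes with 1 window found no difference beyond sampling noise for 2 of the 7 pairs, the inputs of WT in 0.1% serum (p = 0.446) and the ChIP libraries of WT in 10% serum (p = 0.0782). Both pairs differed by more than that noise in the reads of the peak table (chi-square per degree of freedom 1.17 and 1.44), and each library was therefore counted separately. The ΔLEO1 inputs in 10% serum differed most, with 1.74 over genes and 1.90 over peaks, and the ratios of that condition rest on them. Windows at LEO1 reach beyond the deleted stretch and do not check the genotype labels. As a check of the tissue, 17 of 18 fibroblast marker genes lay below input in ChIP (median log2 ratio -1.42) and 1, COL6A1, lay above it.

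The promoters with the highest and the lowest ratio of ChIP to input are printed first, because the contrast between them is the main difference among the genes described below. They run from 250 bases before to 50 bases after the RefSeq start, on build GRCh38.p14, in the direction of transcription. Capitals mark 2 short motifs on either strand, TAATTA, the core bound by LIM-homeodomain factors such as LHX2, and TATAAA, the TATA box. OR6Q1 (chr11:58030703-58031002, plus strand) and OR10A4 (chr11:6876375-6876674, plus strand) had the highest ratios, and OR10G7 (chr11:124041276-124041575, minus strand) and OR8B3 (chr11:124398975-124399274, minus strand) the lowest.
OR6Q1: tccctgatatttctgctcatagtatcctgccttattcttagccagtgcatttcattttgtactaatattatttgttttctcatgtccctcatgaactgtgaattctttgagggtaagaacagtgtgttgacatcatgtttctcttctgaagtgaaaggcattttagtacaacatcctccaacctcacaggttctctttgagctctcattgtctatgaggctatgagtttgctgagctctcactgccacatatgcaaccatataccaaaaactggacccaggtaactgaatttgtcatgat
OR10A4: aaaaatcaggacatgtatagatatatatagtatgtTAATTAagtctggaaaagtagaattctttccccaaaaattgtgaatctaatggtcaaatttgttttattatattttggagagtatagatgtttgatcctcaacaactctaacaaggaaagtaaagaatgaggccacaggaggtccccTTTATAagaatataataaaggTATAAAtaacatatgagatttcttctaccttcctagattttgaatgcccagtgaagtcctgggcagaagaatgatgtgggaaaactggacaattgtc
OR10G7: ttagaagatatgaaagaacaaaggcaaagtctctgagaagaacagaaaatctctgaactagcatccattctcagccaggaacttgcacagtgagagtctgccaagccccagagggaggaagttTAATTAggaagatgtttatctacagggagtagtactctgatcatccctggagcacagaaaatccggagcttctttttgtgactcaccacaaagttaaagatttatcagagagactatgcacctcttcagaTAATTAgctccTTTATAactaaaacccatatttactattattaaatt
OR8B3: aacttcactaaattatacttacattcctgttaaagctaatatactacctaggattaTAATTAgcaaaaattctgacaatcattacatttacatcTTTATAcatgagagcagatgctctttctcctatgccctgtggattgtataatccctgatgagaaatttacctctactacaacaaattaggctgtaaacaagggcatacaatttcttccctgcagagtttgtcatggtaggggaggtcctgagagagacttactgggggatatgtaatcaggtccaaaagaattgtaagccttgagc

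Of the 117 genes, 95 had a RefSeq promoter in the table used, and each of these promoters lay whole inside a start window. They were poor in CG, with a median of 1 CG dinucleotide against 14 over all 35116 promoters, and their median GC content was 37.0% against 58.7%. TAATTA occurred in 26.3% of them and in 4.84% of all promoters, and TATAAA in 32.6% and 11.5%. The core of the Olf/EBF site (CCC, any 2 bases, GGG) occurred in 6.32% and 19.1%, namely in OR2AG2, OR5F1, OR5M3, OR8D4, OR8H2 and OR9I1. Both motifs marked above occur in OR10A4, OR10G7 and OR8B3, and neither occurs in OR6Q1. A letter match is not a site of binding, and the parts of base composition and motifs in the ChIP values were not tested.

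The first question was whether the start windows of these genes carried more H3K9me2 than input. They did in most cases: of 101 genes that passed a filter of a mean of 10 reads per library, 78 lay above input and 4 below (edgeR quasi-likelihood test, adjusted p under 0.05). Over all 56729 genes tested, 39.6% lay above input and 34% below. DESeq2 called 61 of the 101 genes above and 4 below, against 16122 and 18894 of the 56729. The median log2 ratio of ChIP to input was 0.70 for the 101 genes and 0.13 for all genes. A ratio here is relative to the other genes of the libraries, since the reads of the fly chromatin added as a spike-in were not used here. The split rested on that scaling: it was 84 above and 0 below with library totals without TMM. With reads in peaks as library sizes it was 0 above and 99 below, with medians of -1.43 for all genes and -0.86 for the class II OR genes. Peaks take a larger part of the reads in ChIP than in input. In WT in 10% serum, ChIP library A held 332232 reads in peaks and 2667321 in start windows, and input A held 150500 and 6049798. That setting therefore lowers every ratio in advance and does not test whether these genes lie above input.

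**Figure D1:**
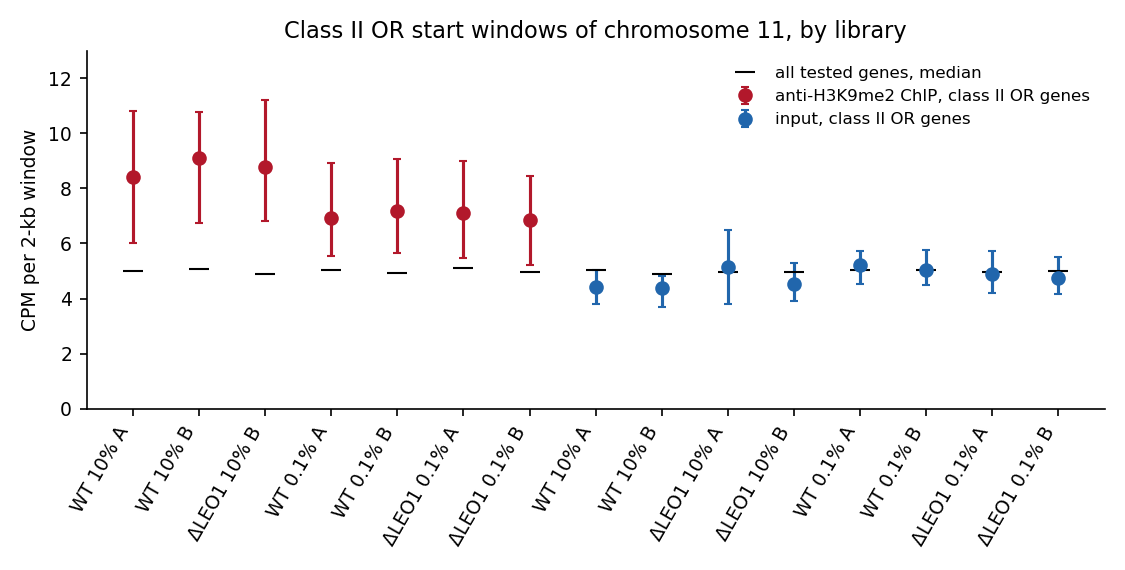
Level of 101 class II OR genes in each library, in CPM per 2-kb window; points are medians over the genes, bars the interquartile range, and black dashes the median of all tested genes. The medians of these genes lay between 6.85 and 9.11 in the 7 ChIP libraries and between 4.38 and 5.20 in the 8 inputs.

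The scale behind these ratios is small. Levels are given in CPM, reads scaled to a common library size, and divided by the number of windows of a gene. The mean level over the 7 ChIP libraries had a median of 7.94 CPM per window over the 101 genes (interquartile range 6.44 to 9.26), against 4.86 in the 8 inputs (4.59 to 5.09). For all tested genes the medians were 5.21 and 5.06. In input the genes differed little from each other, between 3.68 for OR4A47 and 5.88 for OR5D18, whereas in ChIP they ranged from 2.73 to 13.9. In 30 of the 101 genes every ChIP library lay above every input library, against 15% of all genes. In 1 of the 101, OR10G7, every ChIP library lay below every input, against 20.6% of all genes.

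OR6Q1 in cluster 5 had the highest ratio. Its ChIP level was 10.7 CPM per window in the lowest library, 13.7 in the median and 16.4 in the highest, and its input level was 2.7, 5.08 and 5.83. The libraries did not overlap, and the log2 ratio was 1.43 ± 0.16 (SE; adjusted p = 4.90e-08 by edgeR). OR10A4 in cluster 1 ran from 8.05 over 11.5 to 16.1 in ChIP and from 3.27 over 4.70 to 6.08 in input, a log2 ratio of 1.31 ± 0.14 (adjusted p = 1.57e-08 by edgeR). OR10W1 in cluster 5, OR5M8 in cluster 4 and OR4D5 in cluster 7 followed with 1.27 ± 0.14, 1.21 ± 0.14 and 1.20 ± 0.13. In these 4 genes as well, the lowest ChIP library exceeded the highest input library.

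The other end of the range was held by receptors of cluster 7. OR10G7, a receptor that responds to eugenol, had ChIP levels of 2.36, 2.77 and 3.42 CPM per window (lowest, median and highest library) and input levels of 3.5, 5.15 and 6.11. OR8B3 had 1.69, 2.65 and 3.82 in ChIP and 2.87, 4.40 and 6.10 in input, and these ranges overlapped. Their log2 ratios were -0.65 ± 0.20 (adjusted p = 0.00485 by edgeR) and -0.63 ± 0.20 (adjusted p = 0.00852). OR8G1 (-0.56 ± 0.21, adjusted p = 0.0198) and OR10G4, a guaiacol receptor (-0.54 ± 0.21, adjusted p = 0.0218), also lay below input, with libraries that overlapped. OR8G1 lost its call without ChIP library A of WT in 10% serum, and OR10G4 without ChIP library A of WT in 10% serum, of WT in 0.1% serum or of ΔLEO1 in 0.1% serum. The fifth lowest gene, OR5A2, had a log2 ratio of -0.31 ± 0.17 that did not pass (adjusted p = 0.108). Its windows, chr11:59425412-59427412 and chr11:59425413-59427413, held the same reads in every library. Its reads were thus counted more than once, and its standard errors and p-values here and below are too small. The windows of OR4D9, named below, also overlapped for most of their length.

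**Figure D2:**
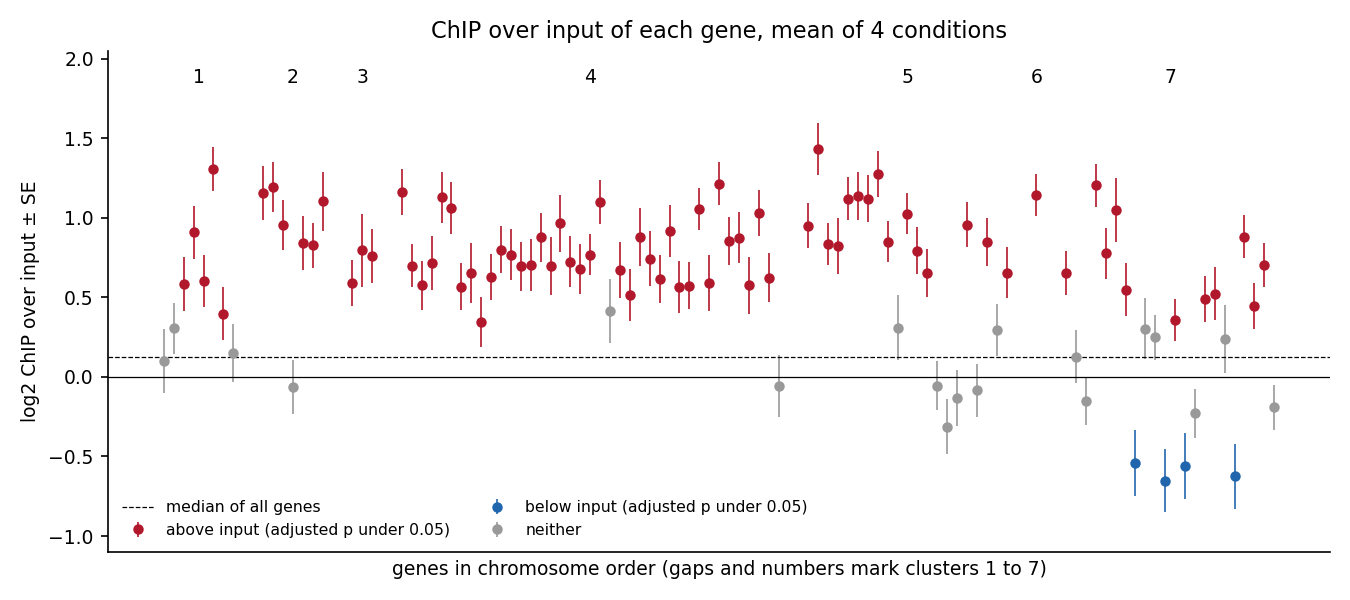
Log2 ratio of ChIP to input of 101 class II OR genes in their order along chromosome 11, as the mean of 4 conditions with its standard error; numbers and gaps mark clusters 1 to 7, and colour marks the call. The 4 genes below input all lie in cluster 7, and cluster 4 holds 37 genes above input of 39.

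The ratio varied along the chromosome. In cluster 4, which spans chr11:54602998-56989914, 37 of 39 tested genes lay above input and none below, with a median log2 ratio of 0.70. The 2 that did not pass were OR5AS1 (0.41) and OR5AK2 (-0.06), the last gene of the cluster. In cluster 2 the count was 6 of 7 (median 0.95), in cluster 3 it was 3 of 3 (0.76), and the lone gene OR2AT4 lay above input at 1.14 ± 0.13. In cluster 1 it was 5 of 8 (0.49) and in cluster 5 it was 15 of 21 (0.84).

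Cluster 7, chr11:123753518-124571723, had a median of 0.33, with 11 of 22 genes above input and 4 below. Its genes alternated over short distances: OR8B3 at -0.63 lay beside OR8B4, at 0.88 ± 0.14 with ChIP levels of 6.45 to 14.1 CPM per window and inputs of 3.82 to 6.22. Cluster 5 fell into a first stretch of 13 genes, from OR9Q1 to OR5B21, of which 12 lay above input, and a second of 8 genes, from OR5AN1 to OR10V1, of which 3 did. In the second stretch OR5AN1, a receptor for musks, OR5A2, OR5A1, the receptor for beta-ionone, and OR4D10 had log2 ratios of -0.05, -0.31, -0.13 and -0.085, none of which passed. OR4D6, which lies before OR4D10, reached 0.96 ± 0.14, and OR4D11, which lies after it, 0.85 ± 0.15. These stretches were described after their values had been seen, and no test was made of them.

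By family, the median log2 ratios ran from 0.31 in family 2 to 1.13 in family 1. Family 4, whose tested genes lay in clusters 2 to 5 but for 1 in cluster 7, had a median log2 ratio of 0.80 and 23 of 26 genes above input. Family 5 had 0.70 and 23 of 29. Family 8 had 0.52, with 11 of 17 above and 2 below, and family 10 had 0.63, with 10 of 14 above and 2 below. OR6A2, known for its response to the aldehydes of coriander, had 0.58, and OR8D1, a receptor for sotolone, had 0.49.

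Other OR genes had medians close to that of the class II genes of chromosome 11, and no test was made between the lists. Of class II OR pseudogenes on chromosome 11, 112 of 141 lay above input and 1 below (median log2 ratio 0.68). Of class I ORs, which occupy a separate cluster on the same chromosome, 42 of 56 lay above and 3 below (0.69), and of class II ORs on other chromosomes 129 of 188 lay above and 10 below (0.61). The genes that are no OR but lie inside the 7 clusters had a median of 0.32, with 44 of 91 above and 25 below, and the remaining genes of chromosome 11 had -0.02, with 1010 of 2933 above and 1209 below.

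**Figure D3:**
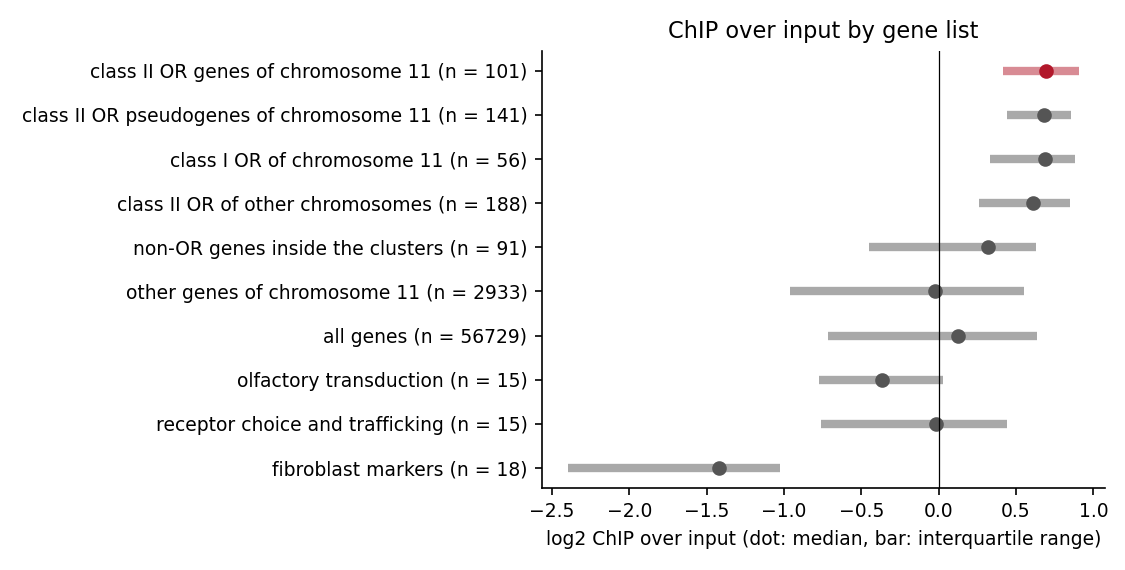
Log2 ratio of ChIP to input, mean of 4 conditions, by list of genes; dots are medians, bars the interquartile range and n the number of genes tested. The 4 OR lists lie between 0.61 and 0.70, and the fibroblast markers at -1.42.

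Genes that work with the receptors lay on both sides of input. Of 15 genes of olfactory transduction, 3 lay above input and 9 below (median log2 ratio -0.37). Those above were the channel subunit gene CNGA2 (0.63), ANO2, a chloride channel (0.55), and PDE1C, a phosphodiesterase (0.25). ADCY3, the adenylyl cyclase of the cilia, lay below at -0.37. Of 15 genes for receptor choice and trafficking, 6 lay above and 6 below (median -0.02), with the transcription factor gene EBF3 at 0.63, the chaperone gene RTP2 at 0.49 and LDB1, which bridges distant receptor enhancers, at -2.20.

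Peak regions overlapped the windows of 4 of the 117 genes, OR6Q1, OR10W1, OR2AT4 and OR10S1. The table listed 760 peaks on chromosome 11. The share of all genes with a peak was not counted, so these 4 genes are not read as few or many. The peak at OR6Q1 (chr11:58030912-58032008) was annotated by the table as its exon and held 30 and 25 reads in WT in 10% serum, 12 in ΔLEO1 in 10%, 42 and 26 in WT in 0.1% and 32 and 28 in ΔLEO1 in 0.1% serum. The 8 inputs held 7 to 23 reads there. OR2AT4, which responds to a synthetic sandalwood odorant and has been described in skin keratinocytes, had ChIP levels of 9.26, 10.5 and 14.4 CPM per window against 4.34, 4.96 and 5.94 in input. OR10S1 had a log2 ratio of 1.05 ± 0.20, with ChIP libraries from 3.00 to 18.4 and inputs from 3.72 to 7.70, which overlapped. How the peaks were called across the libraries is not given in the sources used here.

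For 16 of the 117 genes no ratio could be given. They were OR5P2, OR5P3, OR10A6 and OR10A3, which are neighbours in cluster 1, and 12 genes of cluster 4, of which OR8J2, OR5T2, OR5T3, OR5T1, OR8H1, OR8K3, OR8K1, OR8J1 and OR8U1 are neighbours, as are OR9G1, OR9G4 and OR5G3. Of the 16, 13 held 0 reads in all 16 libraries, OR8J1 and OR8U1 held 20 each and OR9G1 held 27. In 15 of them, all but OR8U1, the table listed a window of the same symbol on an alternate contig, as it did for 1 of the 101 tested genes. All 6459 gene entries on alternate contigs held 0 reads. Over the whole of chromosome 11, 48 of the 135 genes with such a second entry held 0 reads, against 22 of 3286 without one. These zeros were found in input as well as in ChIP and therefore say nothing of H3K9me2, and their cause was not tested.

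By condition, the number of genes above input was 72 of 101 in WT in 10% serum (30% of all genes), 28 in WT in 0.1% serum (20.5%), 36 in ΔLEO1 in 10% serum (14.7%, with 1 ChIP library) and 34 in ΔLEO1 in 0.1% serum (20.2%). Below input were 1 (27.5% of all genes), 2 (24.1%), 0 (17.3%) and 0 (24%) in the same order. The counts above input moved with the tool and the libraries: DESeq2 gave 41, 8, 16 and 7, and leaving out 1 library gave as few as 16 in WT (without ChIP library A) and 17 in ΔLEO1 (without input B) in 0.1% serum. The median log2 ratios were 0.96, 0.43, 0.87 and 0.46. In WT in 10% and 0.1% serum the pseudogenes had medians of 0.99 and 0.43. Class II ORs elsewhere had 0.83 and 0.47 there, and class I ORs 0.82 and 0.58. In 77 of the 101 class II OR genes of chromosome 11 the ratio was above 0 in all 4 conditions, against 38.8% of all genes. In 14 genes, against 6.05% of all genes, the call was made in each condition: OR10A4, OR4X2, OR4C46, OR4A15, OR5M9, OR5M8, OR9Q1, OR1S2, OR1S1, OR10Q1, OR10W1, OR5B2, OR2AT4 and OR4D5. The order of the genes was partly kept between the WT conditions (Spearman's rho 0.63 over 101 genes, which share libraries and are not independent).

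The next comparison asked whether serum changed the mark in WT cells, relative to the other genes. A change shared by most genes would not show under this scaling. No single gene passed the test: 0 of 97 genes tested in ChIP were called higher and 0 lower in 0.1% than in 10% serum, as were 0% and 0% of all 48710 genes (edgeR; 3 genes were higher and 9 lower at an unadjusted p under 0.05, which 9.24% of all genes reached, and DESeq2 called 0). Of the 97, 69 had a log2 fold below 0, and the median was -0.15, against -0.0019 for all genes. The other OR lists also had medians below 0. They were -0.22 for the class II pseudogenes of chromosome 11, -0.15 for class II ORs elsewhere and -0.089 for class I ORs. The genes inside the clusters that are no OR had 0.0070. With reads in peaks as library sizes the median of the 97 genes was -0.013, against 0.13 for all genes. Both WT libraries in 0.1% serum lay below both in 10% serum for 41 genes, 42.3%, against 24.2% of all genes, and above them for 9, 9.28%, against 16.9%. In ΔLEO1 the median was -0.24, with 70 of 97 below 0 and 0 called in either direction (0% of all genes higher and 0.00205% lower; 1 gene higher and 11 lower at an unadjusted p under 0.05, which 10.2% of all genes reached, and DESeq2 called 0).

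Among WT genes whose libraries did not overlap, OR5M1 in cluster 4 had ChIP levels of 10.8 and 9.11 CPM per window in 10% serum and 5.53 and 4.16 in 0.1% serum. Its log2 fold was -0.87 ± 0.30 (adjusted p = 0.423 by edgeR). OR5F1 stood at 10.8 and 14.2 against 6.76 and 6.81, a log2 fold of -0.78 ± 0.26, OR10A5 at 10.8 and 14.5 against 5.53 and 8.70, and OR5B21 at 14.4 and 14.5 against 9.22 and 6.81. In the other direction OR4S1 had 4.00 and 4.38 in 10% serum and 8.60 and 8.70 in 0.1% serum, a log2 fold of 0.97 ± 0.33 (adjusted p = 0.418 by edgeR). OR4D10, OR5A2 and OR4D9, all in the second stretch of cluster 5, also had higher values in 0.1% serum, with log2 folds of 0.81, 0.79 and 0.48. None of these differences passed the test.

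Input levels differed in the opposite direction. WT inputs held 4.42 and 4.38 CPM per window in 10% serum as medians over the 101 genes, and 5.20 and 5.04 in 0.1% serum, and the libraries did not overlap. The median log2 fold in input was 0.24, with 83 of 101 genes above 0, and 0 genes were called (0% of all 57079 genes higher, 0.00175% lower; 5 were higher and 0 lower at an unadjusted p under 0.05, which 8.31% of all genes reached, and DESeq2 called 0). Both inputs in 0.1% serum lay above both in 10% serum for 43 genes, 42.6%, against 21.5% of all genes, and below them for 6, 5.94%, against 20.1%. In ΔLEO1 the input median was 0.07, with 0 genes called (0% and 0% of all genes; 5 higher and 3 lower at an unadjusted p under 0.05, which 4.39% of all genes reached, and DESeq2 called 0), and its 10% serum inputs, at 5.16 and 4.52, spanned both levels.

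The median input fold in WT was above 0 in the other OR lists as well, against 0.0096 for all genes. It was 0.18 for class I ORs, 0.21 for the pseudogenes and 0.20 for class II ORs elsewhere. Nor was it limited to ORs. The genes inside the clusters that are no OR had a median of 0.17, with 69 of 91 above 0. The ratio of ChIP to input, which takes up both differences, was lower in 0.1% serum in 80 of 101 genes in WT, with a median log2 difference of -0.44 against -0.07 for all genes. In ΔLEO1 it was lower in 68 of 101, with a median of -0.34 against -0.04. No class II OR gene passed by edgeR or DESeq2 in either genotype (0% of all genes higher and 0% lower in WT, 0% and 0.00529% in ΔLEO1). At an unadjusted p under 0.05, 0 were higher and 16 lower in WT, 15.8% of them against 9.49% of all genes, and 1 was higher and 11 lower in ΔLEO1, 11.9% against 8.76%. These ratio and input contrasts between sera were added after the data had been seen. The part of the input in the lower ratio was not tested.

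**Figure D4:**
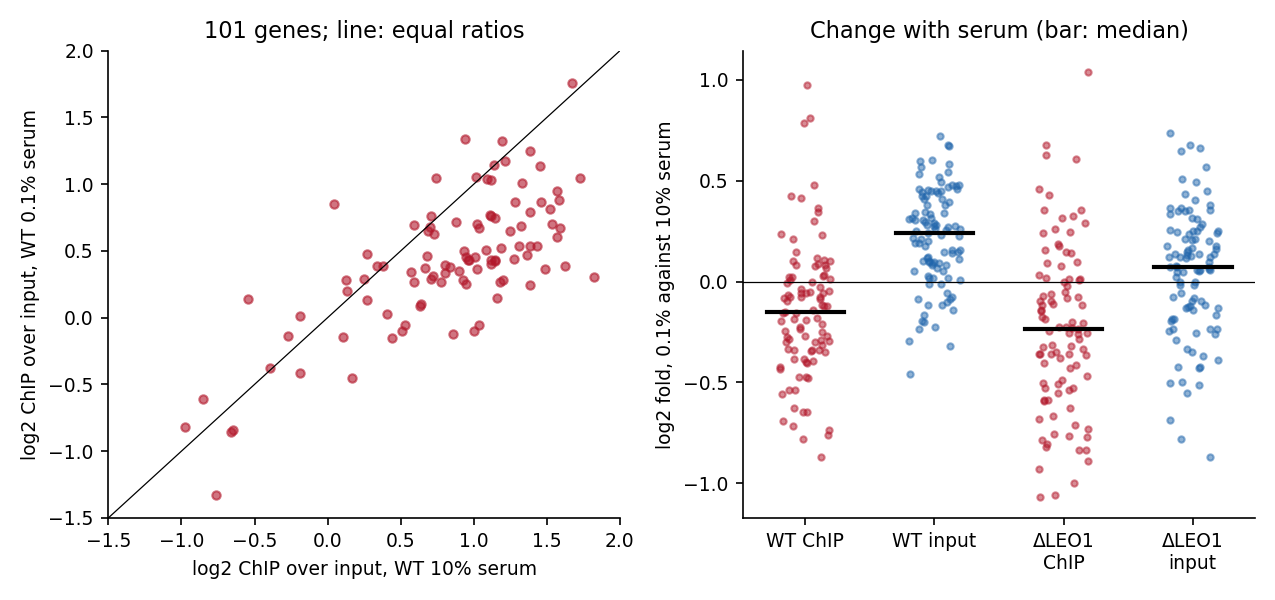
Serum and class II OR genes. Left, log2 ratio of ChIP to input of 101 genes in WT in 0.1% serum against that in 10% serum, with 80 of 101 points below the line of equal ratios; right, log2 fold of 0.1% against 10% serum for each gene in ChIP (97 genes) and input (101 genes), with medians as bars at -0.15, 0.24, -0.24 and 0.07.

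The comparison of ΔLEO1 with WT cells in 0.1% serum asked whether loss of LEO1 altered the mark in quiescence, relative to the other genes. A change shared by most genes is scaled away here, because the fly chromatin was not used. The paper, which scaled to that chromatin, reported a global increase of H3K9me2 in quiescent ΔLEO1 cells. The folds given here do not test that increase. For the class II OR genes no difference passed the test. Of 97 genes 0 were called higher and 0 lower (0% and 0% of 48710 genes; 1 gene was higher and 5 lower at an unadjusted p under 0.05, which 10.2% of all genes reached, and DESeq2 called 0). The median log2 fold was -0.037, against -0.0092 for all genes, with 47 genes above 0 and 50 below. The sign of the median rested on the scaling, but its place relative to all genes did not. With reads in peaks as library sizes the median was 0.25, against 0.29 for all genes. Then 18 genes were higher and 1 lower at an unadjusted p under 0.05, which 19.5% of all genes reached. Both ΔLEO1 libraries lay above both WT libraries for 20 genes, 20.6%, against 19.6% of all genes, and below them for 25, 25.8%, against 21.8%. The 4 genes below input in cluster 7 had too few ChIP reads to enter these ChIP tests.

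The lowest fold was that of OR4S1 in cluster 2 (chr11:48305223-48307223). Its ChIP levels were 8.60 and 8.70 CPM per window in WT in 0.1% serum and 4.10 and 1.61 in ΔLEO1, and the groups did not overlap. In 10% serum it stood at 4.00 and 4.38 in WT and 3.42 in ΔLEO1. The log2 fold in 0.1% serum was -1.32 ± 0.34 (adjusted p = 0.213 by edgeR), and it was -1.98 without ΔLEO1 library A and -0.97 without ΔLEO1 library B. When each gene was represented by 1 window, which leaves OR4S1, a gene with 1 window, as it was but changes the genes fitted with it, the fold was -1.28 ± 0.33 and passed (adjusted p = 0.0344 by edgeR), the only class II OR gene called in this comparison under that setting. The same setting called 0.376% of all 43309 genes lower, where the summed windows called 0. Its neighbour OR4X1 had 9.83 and 15.1 in WT and 7.65 and 6.44 in ΔLEO1, a log2 fold of -0.73 ± 0.27.

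OR10S1 had 12.9 and 10.97 CPM per window in WT and 3.00 and 10.5 in ΔLEO1, so that the distance between the ΔLEO1 libraries exceeded that between the groups. OR8D2 had 10.4 and 4.92 against 4.64 and 4.03. In the other direction OR5B12, with 2 windows in cluster 5, had 5.84 and 6.62 in WT and 8.46 and 12.7 in ΔLEO1, a log2 fold of 0.71 ± 0.28 (adjusted p = 0.411 by edgeR). OR8B2, OR5A1 and OR8K5 had log2 folds of 0.54, 0.51 and 0.51 without overlap of the libraries, and none passed.

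**Figure D5:**
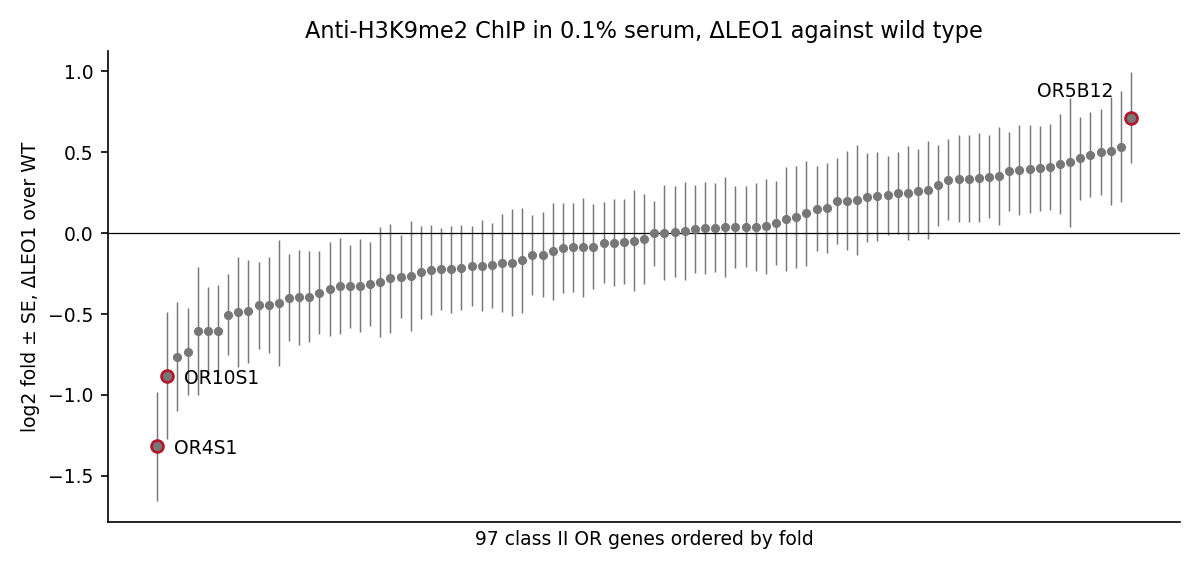
Log2 fold of ΔLEO1 over WT in ChIP in 0.1% serum for 97 class II OR genes, ordered by fold, with standard errors. The values run from -1.32 for OR4S1 to 0.71 for OR5B12, with 47 above 0 and 50 below.

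Relative to input, too, no difference between the genotypes in 0.1% serum passed: 0 of 101 genes were called higher and 0 lower (0% and 0.00529% of all genes; 3 higher and 3 lower at an unadjusted p under 0.05, which 7.73% of all genes reached, and DESeq2 called 0), and the median log2 difference was 0.049. The median standard error of a gene's log2 fold in ChIP was 0.28. The log2 fold of -1.32 of OR4S1 did not pass after adjustment over all 48710 genes (adjusted p = 0.213 by edgeR). In 10% serum, with 1 ΔLEO1 ChIP library, 0 of 97 genes were called (0% of all genes higher and 0.00411% lower; 3 higher and 1 lower at an unadjusted p under 0.05, which 8.86% of all genes reached, and DESeq2 called 0), with a median of 0.034. There OR5A2 stood at 1.60 and 2.7 CPM per window in WT and 7.81 in the single ΔLEO1 library, and OR5B21 at 14.4 and 14.5 against 5.37, and neither passed (adjusted p = 0.247 and 0.317 by edgeR).

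The difference between the genotypes was not shown to depend on serum for any of the genes. The interaction of genotype and serum called 0 of 97 genes (0% of all genes in both directions; 1 higher and 2 lower at an unadjusted p under 0.05, which 5.96% of all genes reached, and DESeq2 called 0), with a median of -0.075. The input libraries gave no call between genotypes either. Their median log2 fold was -0.075 in 0.1% serum (0% of all genes higher and 0% lower; 1 higher and 1 lower at an unadjusted p under 0.05, which 5.19% of all genes reached, and DESeq2 called 0). Both ΔLEO1 inputs lay above both WT inputs for 13 genes, 12.9%, against 17.9% of all genes, and below them for 21, 20.8%, against 18.6%. In 10% serum it was 0.14 (0% and 0.00175% of all genes; 4 higher and 1 lower at an unadjusted p under 0.05, which 6.75% of all genes reached, and DESeq2 called 0), and the corresponding counts were 23 and 11 (22.8% and 10.9%, against 17.6% and 17.6% of all genes).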

How the data were processed

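H3K9me2 ChIP and input libraries (8 each) of BJ-5ta fibroblasts were analysed. The authors deposited raw read counts over 2-kb start windows and over peak regions. Per the submitters' processing notes the reads were handled with bcl2fastq 2.20.0.422, STAR 2.7.10a and HOMER on builds hg38 and dm6. The study's methods describe demultiplexing with bcl2fastq and alignment with STAR, and name csaw for counting ChIP signal. Which tool made the deposited tables, and how reads that map to several places were treated, is not given in the sources used here, and near-identical receptor genes are therefore uncertain.

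Counts of distinct windows were summed per gene, so overlapping windows count reads more than once. Genes with a mean of at least 10 counts were fitted with edgeR 4.0.16 (R 4.3.3, TMM scaling, prior count 2, quasi-likelihood test, Benjamini-Hochberg adjustment over all genes) in 3 fits, of 15 libraries, of 7 ChIP libraries and of 8 inputs. Standard errors are the fold divided by the root of F. CPM values use the scaling of the 15 libraries. Total windows per library give the depth, and single genes rested on 53 to 454 ChIP reads in all. A call is an adjusted p under 0.05. Steps were tested on simulated data.

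Genes, lists and tests were chosen with earlier results of these data known. Named genes are the 5 highest and 5 lowest ratios, the 4 largest rises and falls without overlap per ChIP contrast, genes with a peak and the extremes of input. Other names were given after their values had been seen. No 2 promoters were near identical (90% or more). Epithelial, endothelial and haematopoietic marker lists of 4 genes each were above input in 1, 2 and 1 genes and below in 2, 0 and 1. Alternatives were DESeq2 1.42.0, other scalings and filters, 1 window per gene, a replicate block, leaving out each library and keeping the library of 54 reads.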

Additional observations from a re-analysis of the deposited data

How the results depend on the processing

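The call of the genes above input rested on the scaling. With reads in peak regions as library sizes, the median of all genes moved from 0.13 to -1.43 and 0 class II OR genes lay above input (median -0.86), although relative to all genes the median kept its distance, 0.56 against 0.57. Because peaks take a larger part of ChIP reads than of input reads, that scaling lowers every ratio of ChIP to input in advance. It is therefore no test of the calls above input. By condition that scaling gave 0 genes and medians of -0.85 (WT, 10% serum), -1.19 (WT, 0.1%), -0.63 (ΔLEO1, 10%) and -0.85 (ΔLEO1, 0.1%), and named genes turned as well: OR6Q1 -0.15, OR10A4 -0.27, OR10W1 -0.30, OR5M8 -0.36, OR4D5 -0.37, OR4A47 -0.43, OR5D18 -0.70, OR2AT4 -0.48 and OR10S1 -0.52. The same scaling moved the medians between genotypes to 0.36 (ChIP over input, 0.1% serum), 0.25 (ChIP, 0.1%), 0.23 (ChIP, 10%) and 0.0076 (input, 10%). All genes then stood at 0.32, 0.29, 0.19 and -0.15 in that order. Medians between sera moved to -0.013 (WT ChIP) and -0.016 (ΔLEO1 ChIP), where all genes stood at 0.13 and 0.22. They moved to 0.17 (ΔLEO1 input), -0.24 (WT ratio) and -0.18 (ΔLEO1 ratio). The interaction moved to 0.017, against 0.094 for all genes.

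With library totals without TMM the median ratio was 0.94 for the mean of conditions, where all genes stood at 0.37, and 1.20, 0.67, 1.10 and 0.72 by condition in the order above, with 46, 56 and 57 genes above input in the last 3 of them. No class II OR gene then lay below input for the mean of conditions, and 1 did in WT in 0.1% serum. DESeq2 gave 61 genes above and 4 below input for the mean of conditions, and 41, 8, 16 and 7 above by condition. With 1 window per gene the median ratio was 0.50 for the mean of conditions, where all genes stood at 0.089. Then 73 genes lay above input and 6 below. By condition the medians were 0.77, 0.27, 0.69 and 0.29, with 18 genes above input in WT in 0.1% serum. Under that setting 1 gene, OR4S1, was called between genotypes in 0.1% serum. Keeping the library of 54 reads gave ratios of 0.60 for the mean, 0.83 in WT and 0.70 in ΔLEO1 in 10% serum. All genes then stood at 0.030, -0.00065 and -0.12. Between genotypes in 10% serum the median in ChIP was -0.069, against -0.165 for all genes. Between sera in ΔLEO1 ChIP it was -0.14 against 0.15, and for the interaction 0.014 against 0.16. The serum ratio had medians of -0.34 in WT and -0.23 in ΔLEO1. The causes of these moves were not tested.

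Leaving out 1 library at a time gave 16 to 33 genes above input in WT in 0.1% serum, lowest without ChIP library A of that group. It gave 17 to 35 in ΔLEO1 in 0.1% serum, with 18 without ChIP library A, 22 without input A and 17 without input B of that group. The medians between genotypes in 0.1% serum ran from -0.072 (without ΔLEO1 ChIP library B) to -0.017 (without WT ChIP library B) in ChIP, from 0.0053 to 0.0996 (without ΔLEO1 ChIP library A and B) for the ratio and from -0.081 (without the 10% serum ΔLEO1 input A) to -0.031 (without ΔLEO1 input B) in input. The other medians ran from 0.73 to 0.87 for ΔLEO1 in 10% serum, -0.020 to 0.10 and 0.085 to 0.21 for the genotypes in 10% serum in ChIP and input, -0.21 to -0.14 for WT ChIP by serum, -0.52 to -0.34 for its ratio, -0.067 to 0.11 for ΔLEO1 input by serum and -0.094 to -0.011 for the interaction. Libraries of the same letter deviated together only weakly (correlations of 0.019 to 0.13 over genes), so the letters were not taken as pairs. With a replicate block the counts were 78 above and 4 below input, with a median of 0.70. By condition it gave 72, 27, 35 and 33 above and 2, 2, 0 and 0 below, and no gene was called between genotypes or sera.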

Other observations

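Within the class II OR genes of chromosome 11 some values fell outside the comparisons above. Distance to the nearest gene of chromosome 11 that is no OR and lay below input with a log2 ratio under -1 (694 such genes) went weakly with the ratio (Spearman's rho 0.29 over 101 genes, which share libraries and neighbours). The 18 genes within 100 kb of such a gene had a median log2 ratio of 0.49, the 40 genes at 100 to 500 kb had 0.79 and the 43 genes farther away had 0.73.

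Promoter GC content went weakly and inversely with the ratio (rho -0.30 over the 83 genes with both values), within a range of base composition that all these genes share. Genes with and without TAATTA had medians of 0.69 and 0.70, and genes with and without TATAAA both had 0.69.

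Windows of 1 gene did not always carry the same reads. In the shallowest usable ChIP library, that of ΔLEO1 in 10% serum, the 2 windows of OR2AT4 held 41 and 15 reads. In ChIP library A of WT in 10% serum those of OR5B12 held 29 and 8, while its inputs A of that group held 19 and 23. For each gene this was the ChIP library with the widest gap, and no test was made between windows. For OR2AT4 the order was reversed in ChIP library A of WT (28 and 34) and of ΔLEO1 (39 and 42) in 0.1% serum. For OR5B12 the order was kept in every usable ChIP library, with 20 and 17 reads in ΔLEO1 in 10% serum.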
